A study of Mus musculus with 6 samples.

Results

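The clustered protocadherins were described in sensory neurons sorted from the dorsal root ganglia of mouse embryos. Members were the rows of the deposited gene table whose Ensembl identifier carries a symbol beginning with Pcdha, Pcdhb or Pcdhg, which gave 24 of 41388 rows. These were 22 rows of the beta cluster, 1 row of the alpha cluster and 1 row of the gamma cluster. All 6 libraries came from C57BL/6 embryos of the RetFloxedEGFP:NaV1.8Cre genotype at 18.5 days post coitum (dpc), and none came from an embryo without these alleles. EGFP, a green fluorescent protein, marks cells of the Ret population in which Cre recombinase is made from the Nav1.8 (Scn10a) locus, a sodium channel gene of pain-sensing neurons. The marked cells were collected by fluorescence-activated sorting from ganglia of levels T11 to S1. The labels do not say whether embryos carried 1 or both copies of an allele, and the genotype label of male C names the RetFloxedEGFP allele alone. Each of the 3 female libraries (A, B, C) and the male A library was a pool of 2 embryos and 40 ganglia. Male B was a pool of 3 embryos and 60 ganglia, whereas male C was a single embryo with 20 ganglia. The 6 libraries were read as 1 sorted population, and sex was then compared with 3 libraries on each side.

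Clustered protocadherins are cell-surface adhesion proteins that bind the same isoform on another membrane, and the set of isoforms a neuron makes serves as its surface identity. Each neuron chooses a few promoters within the clusters, in a process that depends on DNA methylation, CTCF and cohesin. The resulting code lets the branches of a neuron recognise and avoid each other, and the gamma cluster has been linked to neuron survival and, in touch neurons of the ganglia, to synapses and branching. Alpha and gamma transcripts join a single variable exon, which encodes the extracellular domain, to constant exons shared by the whole cluster. Beta genes have a single coding exon and no constant exons, so each of them has a row of its own, although they share stretches of sequence.

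This structure set what the deposited counts can show. All 24 rows lie on the plus strand of chromosome 18 (GRCm38). The alpha row, ENSMUSG00000007440 (symbol Pcdha11), spans 36930285 to 37187657 and is made of 9 variable exons of 2382 to 2562 bases and 3 constant exons of 59, 89 and 2712 bases. By RefSeq starts, its variable exons belong to Pcdha1, Pcdha2, Pcdha4, Pcdha9, Pcdha10, Pcdha11, Pcdha12, Pcdhac1 and Pcdhac2. The variable exons of 5 further alpha genes, Pcdha3, Pcdha5, Pcdha6, Pcdha7 and Pcdha8, are outside the row. The gamma row, ENSMUSG00000023036 (symbol Pcdhgc4), spans 37674335 to 37841873 with 9 variable exons of 2565 to 2961 bases and 3 constant exons of 59, 89 and 1971 bases. Its variable exons belong to Pcdhga3, Pcdhga8, Pcdhga9, Pcdhgb6, Pcdhga11, Pcdhga12, Pcdhgc3, Pcdhgc4 and Pcdhgc5, while those of 13 further gamma genes are outside the row. Each of these rows therefore pools isoforms and is incomplete for its cluster: it holds no value for a single alpha or gamma isoform, whatever its symbol says. The 22 beta rows, Pcdhb1 (37264998 to 37267454) to Pcdhb22 (37518353 to 37521419), each consist of 1 exon and share no annotated exon base with another row.

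**Figure D1:**
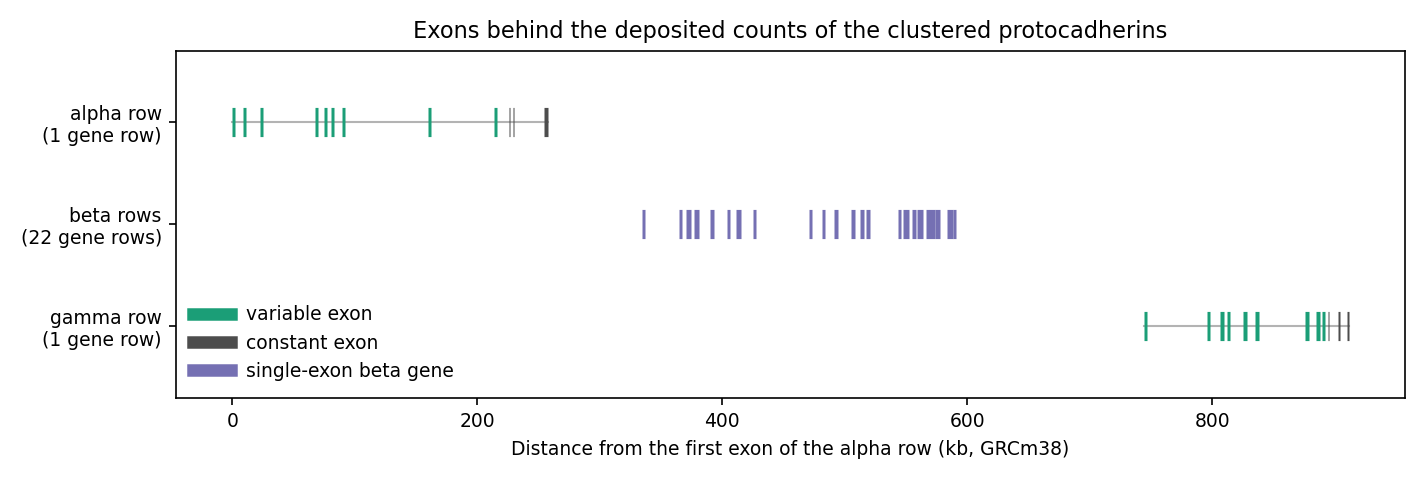
Exons counted in the 24 rows, drawn to scale as distance in kb from the first exon of the alpha row, with 1 line for each cluster; exons narrower than the line are drawn at the line's width. The alpha and gamma rows each hold 9 variable and 3 constant exons, and the 22 single-exon beta genes lie between them.

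Depth and identity of the libraries were as follows. Total counts ranged from 15693013 to 24033601 reads, and the clustered protocadherins took 0.0919% to 0.107% of them. All 6 pan-neuronal and all 8 nociceptor markers had reads in every library, with summed levels of 11041 to 14828 and 3723 to 4907 CPM (the read count relative to library size, with library sizes scaled by edgeR's TMM factors). Glial markers were present too, with all 10 detected in every library and summed levels of 1706 to 2105 CPM. Some of these genes are also expressed by sensory neurons. Fibroblast markers summed to 431 to 727 CPM. Immune markers summed to 0.605 to 1.42 CPM, and the spinal cord markers Olig1, Olig2 and Mnx1 were at 0 in all 6 libraries. Hemoglobin and other erythroid genes summed to 733 CPM in male A and to 26.0 to 136 CPM in the other libraries. In sorted bulk RNA, fewer cells of a type and less RNA per cell cannot be told apart.

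Reads of all 3 clusters were present in the sorted cells, and the alpha and gamma rows were abundant. Glial and fibroblast markers were present too, and which cell type the protocadherin reads came from was not tested. In the females A, B and C the alpha row held 391.9, 497.2 and 453.3 CPM, and in the males A, B and C it held 480.4, 419.9 and 391.9 CPM, a mean of 439.1 ± 45.0 (SD, n = 6). The gamma row held 272.9, 314.7 and 297.9 CPM in the females and 268.2, 295.3 and 363.4 CPM in the males, a mean of 302.1 ± 34.6 (SD, n = 6). Alpha values exceeded gamma values in every library, and the ranges of both rows over libraries did not overlap. The rows do not cover their clusters alike, since variable exons of 5 alpha and 13 gamma genes are missing. Constant exons add 2860 bases to the alpha row and 2119 to the gamma row. The comparison is therefore one of the counted exons and not of whole clusters. Mean CPM was above that of 97.7% of the genes tested for sex for the alpha row and of 96.1% for the gamma row, without regard to their length.

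The 22 beta rows summed to 258.1, 237.8 and 203.3 CPM in the females and to 224.5, 188.2 and 230.3 CPM in the males, a mean of 223.7 ± 24.9 (SD, n = 6). Summed beta reads were 0.658 of the alpha reads in female A and 0.588 in male C, against 0.448 to 0.478 in the other 4 libraries. The beta total therefore did not follow the alpha row from library to library: female A and male C had the lowest alpha levels and were among the 3 libraries with the highest beta totals.

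The ratio of alpha to gamma reads was 1.44, 1.58 and 1.52 in the females and 1.79, 1.42 and 1.08 in the males. Its mean was 1.47 ± 0.234 (SD, n = 6), and male C, the library from 1 embryo, had the lowest ratio and male A the highest. Without male C the mean ratio was 1.55. Male C also had the highest summed neuronal and nociceptor marker levels, and their part in the ratio was not tested.

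**Figure D2:**
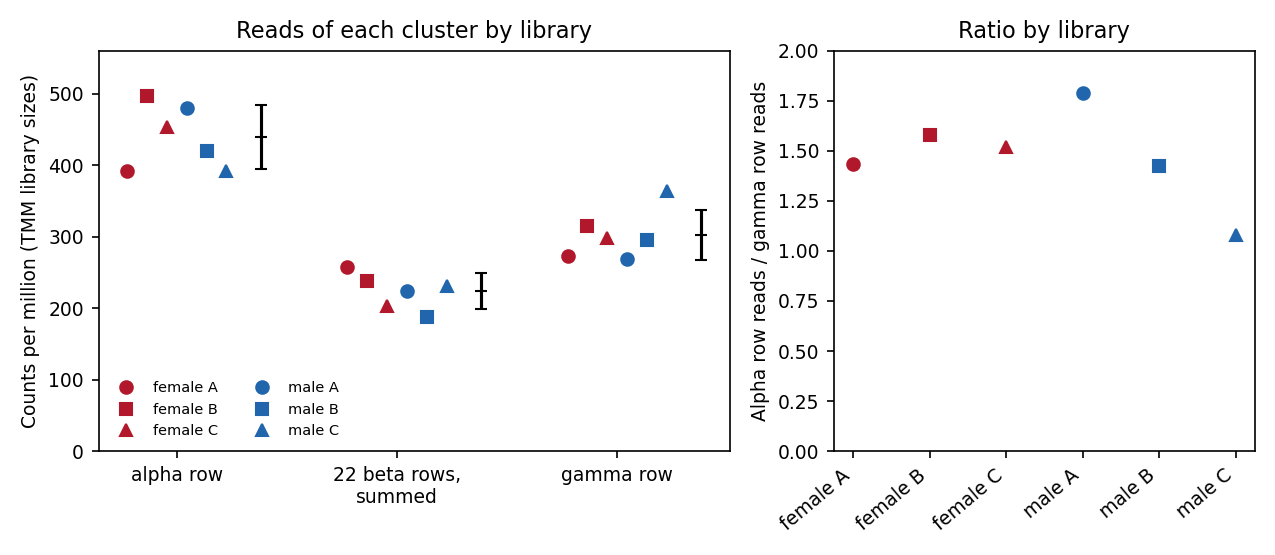
Left, CPM of the alpha row, the summed beta rows and the gamma row in each library, with colour for sex, marker shape for the letter, and a black bar for the mean ± SD of 6 libraries. Right, the ratio of alpha to gamma reads in each library, from 1.08 in male C to 1.79 in male A.

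Levels per length depended on what length is taken for the pooled rows. Spread over all their exon bases that no other row shares, 21880 for alpha and 24447 for gamma, the alpha row reached 20.1 ± 2.05 and the gamma row 12.4 ± 1.41 RPKM (SD, n = 6), where RPKM is the CPM divided by the length in kilobases. A single transcript carries only 1 of the variable exons, and its mean length from these rows is 5283 bases for alpha and 4783 for gamma. On that length, chosen after the data were examined, alpha reached 83.1 ± 8.51 and gamma 63.2 ± 7.23 RPKM, beside a summed level of 62.2 ± 6.85 RPKM over the beta genes. The alpha to gamma ratio on this scale was above 1 in 5 libraries, from 1.29 to 1.62, and 0.976 in male C. Reads from variable exons outside the rows are not in these values, so the order of the clusters per transcript is a description of the counted exons only.

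Of the 22 beta genes, 21 had reads in every library and Pcdhb1 had none in any. Pcdhb9 was the most abundant, with 11.8, 9.14 and 8.38 RPKM in the females and 7.91, 7.82 and 8.87 RPKM in the males, a mean of 8.99 ± 1.48 (SD, n = 6). Its counts of 403 to 683 reads were the basis of these values. It was the highest beta gene in 6 of 6 libraries, and female A stood above the other 5.

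Pcdhb20 followed with 9.72, 8.17 and 6.68 RPKM in the females and 7.69, 5.00 and 7.80 RPKM in the males, a mean of 7.51 ± 1.58 (SD, n = 6). Pcdhb17 had 6.59, 7.31 and 4.98 RPKM in the females and 6.03, 4.504 and 6.03 RPKM in the males, a mean of 5.91 ± 1.03 (SD, n = 6). Pcdhb9 and Pcdhb20 were among the 3 highest beta genes in 6 of 6 libraries, and the remaining place went to Pcdhb17 in 4 libraries and to Pcdhb7 in 2. Pcdhb7 had 5.32, 6.46 and 5.58 RPKM in the females and 5.33, 6.22 and 4.57 RPKM in the males, a mean of 5.58 ± 0.686 (SD, n = 6). On the deposited lengths these 4 genes were the only beta genes with a mean above 5 RPKM, and 16 others had means between 1 and 4 RPKM.

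At the other end, Pcdhb2 was the lowest detected beta gene. It had 1.02, 1.12 and 0.832 RPKM in the females and 0.494, 0.737 and 0.921 RPKM in the males, a mean of 0.854 ± 0.222 (SD, n = 6) from 30 to 76 reads. It was among the 3 lowest detected beta genes in 6 of 6 libraries. Pcdhb15 (1.10 ± 0.143 RPKM; SD, n = 6) was among them in 4 and Pcdhb6 (1.38 ± 0.150 RPKM; SD, n = 6) in 3.

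Pcdhb1, the first gene of the cluster, had 0 reads in all 6 libraries. A count of 0 allows up to 3 reads, which is 0.0499 RPKM in female B, the deepest library, and 0.0821 RPKM in male C, the shallowest. The limit covers counting error only, since reads amplified without molecular identifiers are not independent molecules. As background, the promoter element common to most clustered protocadherin genes is missing at Pcdhb1. Its part in the absence of reads was not tested.

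**Figure D3:**
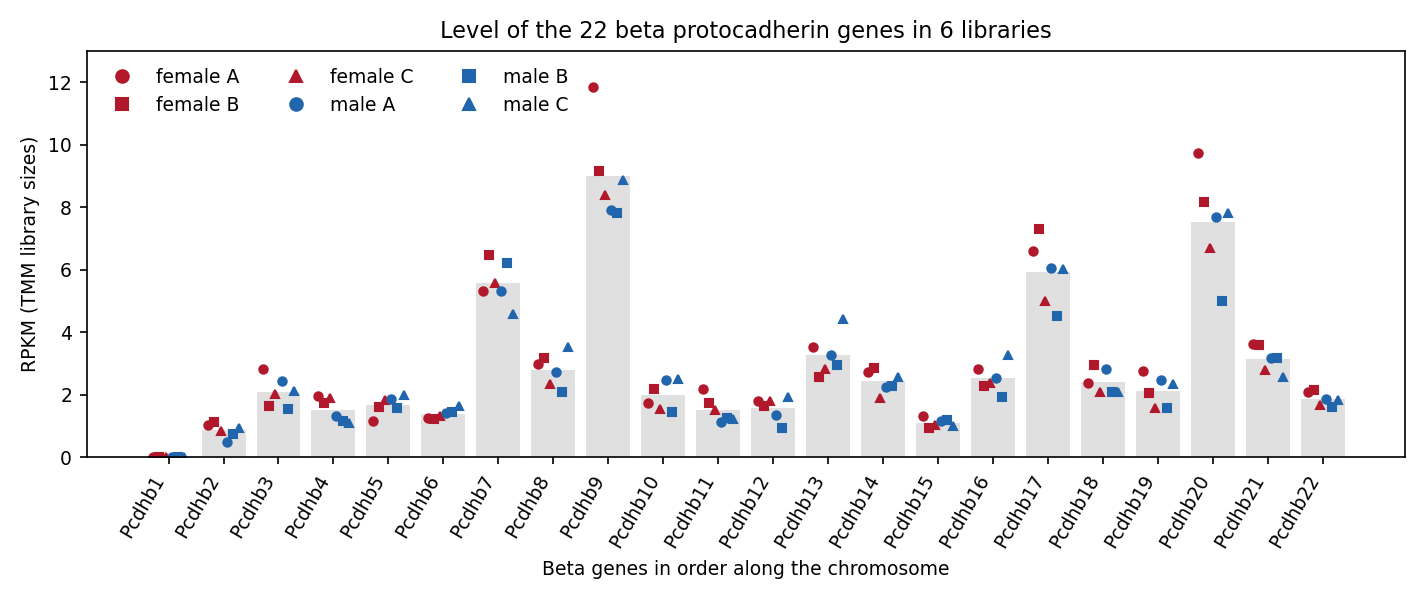
RPKM of the 22 beta genes in order along the chromosome, with grey bars for the mean of 6 libraries and points for each library (colour for sex, shape for the letter). Pcdhb9, Pcdhb20, Pcdhb17 and Pcdhb7 stand above 5 RPKM on average, and Pcdhb1 is at 0 throughout.

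The beta cluster was used unevenly but by many genes. Pcdhb9 made up 14.4% ± 1.28 (SD, n = 6) of the summed beta RPKM, Pcdhb20 12.0% ± 1.34 and Pcdhb17 9.46% ± 0.869. Together these 3 genes held 35.9% ± 2.12, and the 5 highest on the deposited lengths, with Pcdhb7 and Pcdhb13, held 50.2% ± 0.966. The highest detected gene was 10.5-fold above the lowest. The median beta gene stood at 2.14 ± 0.357 RPKM (SD, n = 6), from 1.59 in male B to 2.54 in female A.

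The order of the beta genes was similar in all libraries, with Spearman's rho between 0.87 and 0.95 over the 22 genes for the 15 pairs of libraries. In this description the libraries share gene lengths and sequences. Next to each other in this order, 19 of 21 neighbouring genes had overlapping ranges over libraries. The higher gene of a neighbouring pair was above in all 6 libraries for Pcdhb9 over Pcdhb20, Pcdhb20 over Pcdhb17, Pcdhb7 over Pcdhb13 and Pcdhb2 over Pcdhb1. On the deposited lengths, the step from Pcdhb7 to Pcdhb13, which had 2.57 to 4.43 RPKM, separated the 4 highest genes from the rest without overlap. Between Pcdhb13 and Pcdhb2, neighbours in the order overlapped in each case.

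Neighbours on the chromosome, which lie 39 to 43244 bases apart, were compared next. Each of 21 adjacent pairs was tested on log2(RPKM + 0.1) by flipping the sign of the difference in each of 6 libraries in all possible ways, a two-sided exact permutation test, with Benjamini-Hochberg adjustment over the 21. This test was added after the data were examined. In 14 pairs the difference had the same sign in all 6 libraries, and each gave an exact p = 0.03125, the smallest p that the 64 sign flips allow (adjusted p = 0.0469). The downstream gene was higher in 8 of these pairs and the upstream gene in 6. One of the 14 is Pcdhb1 and Pcdhb2, whose sign was fixed by the absence of Pcdhb1 reads and whose size was set by the pseudocount. Over the 20 pairs of detected genes, 13 passed with the same exact p (adjusted p = 0.0481), the downstream gene being higher in 7. Because the p-values of the passing pairs are tied at the smallest possible value, these pairs pass together or not at all. With fewer tied pairs the adjusted p would be larger, and both adjusted values lie close to the threshold of 0.05. Pairs of beta genes that are not neighbours were not tested. The count of 14 therefore cannot show whether neighbours differ more or less often than other pairs.

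Pcdhb9, Pcdhb20, Pcdhb17 and Pcdhb7 were picked as the highest beta genes of these libraries, and none of them lies next to another. A mean level above both neighbours therefore follows from that choice, and the steps below describe only its size. Pcdhb9 was above Pcdhb8 by 1.65 ± 0.26 (SD, n = 6) on the log2 scale, and Pcdhb10 was below Pcdhb9 by 2.14 ± 0.40, the largest step between 2 detected neighbours. Pcdhb7 was above Pcdhb6 by 1.94 ± 0.29, and Pcdhb20 was above Pcdhb19 by 1.78 ± 0.18. Pcdhb20 also exceeded Pcdhb21, and Pcdhb17 exceeded both Pcdhb16 and Pcdhb18, in 6 of 6 libraries each. On either side of Pcdhb9, Pcdhb8 had 2.80 ± 0.542 and Pcdhb10 1.98 ± 0.462 RPKM (SD, n = 6).

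For 7 adjacent pairs the test did not pass. Pcdhb12 differed from Pcdhb11 by 0.07 ± 0.38 (SD, n = 6) on the log2 scale, Pcdhb5 from Pcdhb4 by 0.14 ± 0.54 and Pcdhb19 from Pcdhb18 by -0.19 ± 0.31. In each of these 3 pairs the sign varied between libraries. The other 4 pairs had the same sign in 5 of 6 libraries.

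Position along the cluster was weakly related to level. Spearman's rho between order on the chromosome and mean RPKM was 0.46 over the 22 genes and 0.38 over the 21 detected, given as a description, since all genes share the same libraries. The first 11 genes summed to 28.4 ± 2.47 RPKM and the last 11 to 33.8 ± 4.55 RPKM (SD, n = 6), ranges of 25.3 to 32.3 and 27.1 to 39.3 that overlapped. Gene length was related to level with a rho of 0.33 over the 22 genes.

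Beta genes arose by duplication and resemble each other, so reads from shared stretches may be lost or split between them. The share of 50-base windows of a gene's longest annotated transcript that also occur in another beta gene ranged from 0% in Pcdhb1 to 12.0% in Pcdhb12. It was 8.75% in Pcdhb9, 5.47% in Pcdhb20, 3.60% in Pcdhb17 and 8.58% in Pcdhb7. The share had a rho of 0.20 with the level over the 22 genes. How reads that match several genes were counted is not stated in these sources, so levels of beta genes carry that uncertainty.

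Compared with RefSeq, the deposited length differed by more than 3 bases for 3 beta genes. With the RefSeq length, Pcdhb21 rose from 3.15 ± 0.423 to 5.41 ± 0.727 RPKM and from the sixth to the fifth place, and Pcdhb19 went from 2.12 ± 0.493 to 3.21 ± 0.746 RPKM. Pcdhb6 went from 1.38 ± 0.150 to 0.946 ± 0.103 RPKM (SD, n = 6). The 4 highest genes have the same place with the deposited and the RefSeq length. With RefSeq lengths, however, Pcdhb21 comes close to Pcdhb7 (5.58 ± 0.686 RPKM; SD, n = 6), and the step below the 4 highest genes is not kept. The longest annotated transcript in GENCODE M21 departs from the deposited length for further genes, among them Pcdhb17 (4660 against 3269 bases) and Pcdhb14 (8695 against 3438). Levels on those transcript lengths were not computed.

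Variation between libraries was moderate for the clustered protocadherins. It was measured by edgeR's biological coefficient of variation (BCV), the relative spread beyond counting error, which edgeR shrinks toward the trend of genes of like abundance. The 23 detected rows had a median BCV of 0.219, beside 0.226 over all 15026 genes tested (middle 50%, 0.186 to 0.297), and 14 of the 23 were at or below that median. The rows of lowest BCV were the alpha row (0.150), the gamma row (0.154) and Pcdhb7 (0.188). The highest were Pcdhb2 (0.287), Pcdhb12 (0.270) and Pcdhb11 (0.266), the first of which has the fewest reads. Over the 21 detected beta genes, BCV and RPKM had a rho of -0.70, as a description. The median BCV of all genes tested also fell with abundance, from 0.296 around a log10 CPM of 0.375 to 0.201 around 1.375. The rho is therefore not particular to the beta genes.

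The alpha row varied with a coefficient of variation (CV) of 10.2% over libraries where counting alone gives 1.04%, and the gamma row with 11.4% against 1.27%. For Pcdhb9 the CV was 16.5% against 4.22%. The observed CV exceeded the counting value in 22 of 23 rows, the exception being Pcdhb6 with 10.9% against 12.0%. Pcdhb12 had 1.81, 1.64 and 1.797 RPKM in the females and 1.34, 0.921 and 1.93 RPKM in the males, so most of its spread lay among the male libraries.

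**Figure D4:**
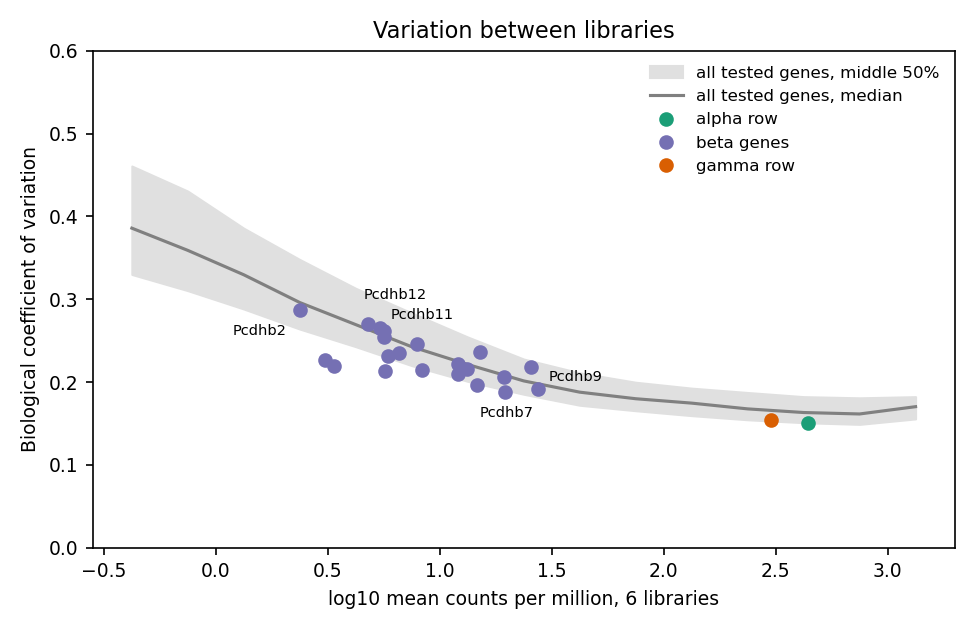
Biological coefficient of variation against log10 mean CPM over 6 libraries for the 23 detected rows (points), beside the median (line) and middle 50% (band) of all genes tested in bins of abundance. The alpha and gamma rows are lowest at 0.150 and 0.154, and Pcdhb2 is highest at 0.287.

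Sex was the factor that varied by design. No clustered protocadherin row passed the test between female and male libraries (edgeR quasi-likelihood test, Benjamini-Hochberg adjustment over 15026 genes). The count was 0 of 23 rows tested, beside 5 genes called among all tested (0.0333%). DESeq2 and limma-voom also called 0 of the 23. At an unadjusted p under 0.05 there were 2 rows, Pcdhb4 and Pcdhb11, beside 1.1% of all genes, and this count was 0 to 2 over the alternatives. Female levels were higher in 15 rows and male levels in 8, beside 49.1% of all genes tested that were higher in females. The rows share the same libraries and are not independent. Their median log2 fold change was 0.07 (all genes, -0.00), with a range of -0.26 (Pcdhb13) to 0.64 (Pcdhb4).

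The alpha row held 447 ± 52.9 CPM in females and 431 ± 45.2 CPM in males (SD, n = 3 each), a log2 fold change of 0.06 (SE 0.16). The gamma row held 295 ± 21.01 and 309 ± 49.0 CPM, a log2 fold change of -0.07 (SE 0.16). For both rows the difference was below its standard error.

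Pcdhb4 had 1.95, 1.73 and 1.89 RPKM in the females and 1.31, 1.16 and 1.09 RPKM in the males. All 3 females lay above all 3 males, with a log2 fold change of 0.64 (SE 0.24, edgeR unadjusted p = 0.0240, adjusted p = 1.00). Over the alternatives the adjusted p of Pcdhb4 ranged from 0.782 to 1.00. Pcdhb11 had 2.19, 1.72 and 1.497 RPKM in the females and 1.11, 1.25 and 1.21 RPKM in the males. Its groups did not overlap either, with a log2 fold change of 0.60 (SE 0.26, edgeR unadjusted p = 0.0451, adjusted p = 1.00, range over the alternatives 0.782 to 1.00). Pcdhb2 had the third smallest p, with a log2 fold change of 0.47 (SE 0.34, edgeR unadjusted p = 0.196, adjusted p = 1.00, the same range over the alternatives) and overlapping groups.

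Groups did not overlap in 3 of 23 rows (13.04%), beside 5.7% of all genes. Females were above in 2 of them, Pcdhb4 and Pcdhb11 (3.17% of all genes), and males in 1, Pcdhb6 (2.53% of all genes). Pcdhb6 had 1.23 to 1.32 RPKM in females and 1.396 to 1.64 RPKM in males. Summed marker levels also lay apart for some cell types, although 0 of the endothelial and 0 of the nociceptor markers tested passed in edgeR (2 of 4 and 0 of 8 had an unadjusted p under 0.05). Endothelial markers, of which 4 of 5 had reads in every library, summed to 6.83 to 8.56 CPM in females and 4.30 to 6.35 CPM in males. Nociceptor markers summed to 3723 to 4333 CPM in females and 4358 to 4907 CPM in males. Of these markers, 7 of 8 were higher in males, as were 5 of 6 pan-neuronal and 5 of 10 glial markers. All 4 endothelial markers tested were higher in females, as were 49.1% of all genes tested. Pan-neuronal and glial sums overlapped, with 11041 to 12565 and 1706 to 2004 CPM in females and 12078 to 14828 and 1871 to 2105 CPM in males. The part of these markers, and of the numbers of embryos pooled, in the differences of Pcdhb4, Pcdhb11 and Pcdhb6 was not tested.

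**Figure D5:**
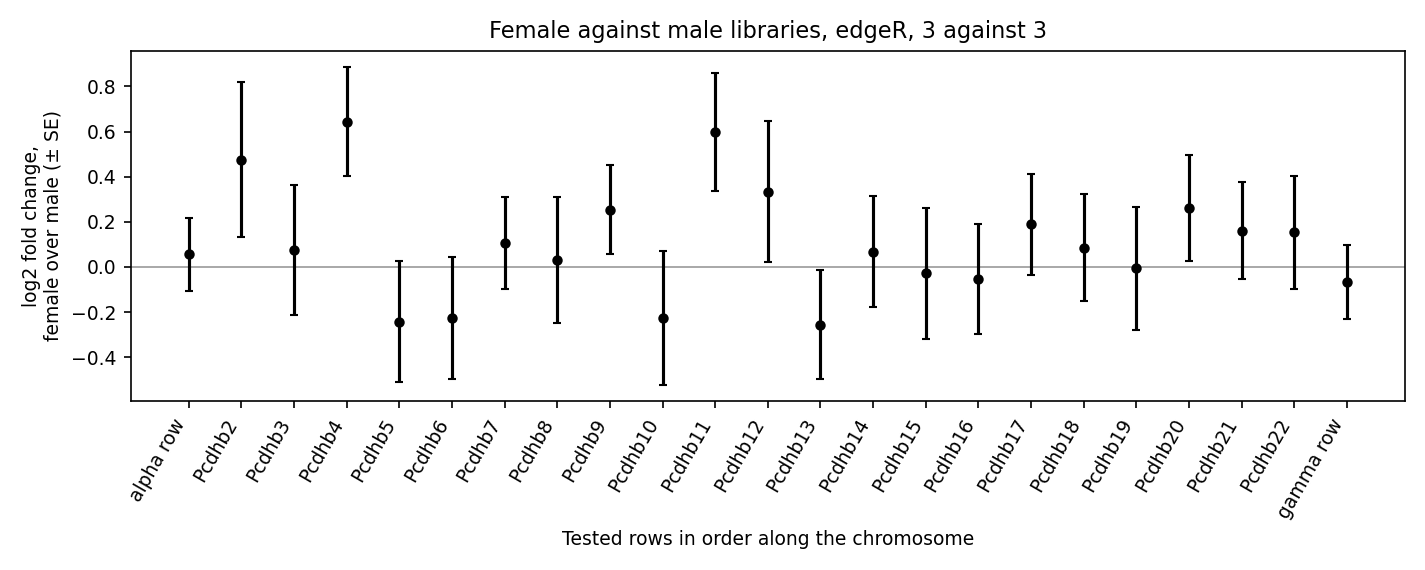
Log2 fold change of female over male libraries (3 against 3) for the 23 tested rows in order along the chromosome, with bars for ± 1 SE from edgeR's quasi-likelihood test. Pcdhb4 (0.64) and Pcdhb11 (0.60) lie farthest from 0, and none of the rows passed the adjusted threshold.

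Genes known to act on the clusters or with their proteins were read from the same libraries, from lists drawn up by name. Of 17 chromatin regulators, 3 cohesin subunits were highest: Rad21, the clasp of the ring, had 26.2 ± 4.45 RPKM, and Smc1a and Smc3, its arms, 24.7 ± 5.24 and 13.5 ± 5.53 RPKM (SD, n = 6). Ctcf, which binds the promoters and enhancers of the clusters, had 8.06 ± 1.20 RPKM. Dnmt3b, the methyltransferase that marks cluster promoters in early development, was the lowest at 0.0755 ± 0.0440 RPKM from 1 to 17 reads a library, while Dnmt3a had 7.45 ± 1.39 RPKM. The cohesin subunits Stag2 and Stag1 were lower, with 7.38 ± 3.33 and 2.64 ± 0.689 RPKM. Smchd1, a silencing factor of the clusters, had 1.34 ± 0.346 RPKM.

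In the same edgeR fit, 0 of the 16 regulators tested passed between sexes. The smallest p was that of Smchd1, with a log2 fold change of 0.35 (SE 0.24, edgeR unadjusted p = 0.169, adjusted p = 1.00, range over the alternatives 0.782 to 1.00). Without female A the log2 fold change of Smchd1 was 0.08. DESeq2 and limma-voom called 0 of them too, and 0 had an unadjusted p under 0.05.

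Protein partners were expressed over a wide range. The highest of the 23 were Brk1 (245 ± 47.6 RPKM) and Cyfip2 (64.2 ± 5.39 RPKM; SD, n = 6), both of the WAVE complex that alpha protocadherins recruit to remodel actin, and Marcks (228 ± 14.3 RPKM), a membrane-actin linker downstream of the gamma cluster. Ret, the receptor kinase that defines the sorted cells and phosphorylates alpha and gamma protocadherins, had 27.8 ± 3.82 RPKM. Of the focal adhesion kinases that the constant domains inhibit, Ptk2 had 7.95 ± 1.02 RPKM and Ptk2b was the lowest partner at 0.194 ± 0.0404 RPKM. Adam10, the protease that sheds the extracellular domain, had 38.5 ± 2.99 RPKM.

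None of the 23 partners passed between sexes in edgeR, DESeq2 or limma-voom, and 0 had an unadjusted p under 0.05 in edgeR. Brk1 had the smallest p, with a log2 fold change of -0.30 (SE 0.18, edgeR unadjusted p = 0.130, adjusted p = 1.00, range over the alternatives 0.782 to 1.00). Without male C it was -0.11.

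Genes beside and between the clusters included both far higher and similar levels. Hars, a histidyl-tRNA synthetase gene, had 118 ± 12.7 RPKM, Zmat2 73.7 ± 7.29 and Hdac3, a histone deacetylase gene, 24.1 ± 2.10 (SD, n = 6). Taf7, a general transcription factor gene that lies between the beta and gamma clusters, had 20.2 ± 2.69 RPKM. The lowest of the 8 was Rell2 at 1.16 ± 0.460 RPKM. Diaph1, downstream of the gamma cluster, had 1.32 ± 0.233 RPKM and the smallest p for sex (log2 fold change -0.30, SE 0.24, edgeR unadjusted p = 0.242, adjusted p = 1.00, range over the alternatives 0.782 to 1.00). In edgeR, DESeq2 and limma-voom 0 of the 8 neighbours passed, and 0 had an unadjusted p under 0.05 in edgeR.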

How the data were processed

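RNA from the sorted cells of 6 libraries was made into amplified cDNA (SMARTer ultra-low input), per the labels' protocols. The authors counted reads per gene with featureCounts 1.4.5 of Subread on GRCm38.p2, per the submitters' processing notes; no source used here states the annotation release, strand setting or treatment of reads matching several places. For each gene the deposited tables hold a whole-number count with its CPM and RPKM. The CPM and RPKM deposited by the authors equalled values recomputed from the counts and deposited lengths, and were used for that check alone.

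Symbols came from GENCODE M21 (97.26% of identifiers) and exon names and alternative lengths from RefSeq. CPM and RPKM were computed with TMM library sizes. RPKM used exon bases that no other row shares, unless another length is named. The length of one transcript is the mean variable exon plus all constant exons of the row, with bases shared with other rows kept. Sex was tested with edgeR 4.0.16 (R 4.3.3; quasi-likelihood test after filterByExpr, adjusted p threshold 0.05), with DESeq2 1.42.0 and limma-voom (limma 3.58.1) as alternatives; printed standard errors are the fold change over the root of the F statistic. The edgeR step was also run on simulated data, with the same spread for every gene and larger fold changes than those of the protocadherin rows. That run cannot show whether differences as small as those seen here would be called. Male C was deposited later than the others. The libraries came from different embryos, and p-values reflect the spread among such pools, which in males mixes 1, 2 and 3 embryos.

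The members, lists, tests and named-gene rule were chosen with earlier results of these data known. The rule named the 5 C-type isoforms, the 3 highest members and the lowest of each isoform group, the 3 of smallest p for sex and of highest and lowest BCV, and the 3 highest, the lowest and the one of smallest p of each other list. For alpha and gamma it could not be applied to isoforms, since their rows pool them; further genes were picked for naming with their values in view. No sequence is printed.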

Additional observations from a re-analysis of the deposited data

Results flagged for a closer look

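Among the 6 libraries, the RPKM of Pcdhb9 was 11.8 in female A and 7.82 to 9.14 in the other 5, a gap of 0.671 of the whole range between the highest library and the next. This was the only one of the 27 measures read (the 23 rows with reads and 4 totals and ratios of the clusters) with a library that far from the others, and chance alone sets apart about 1 in 20.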

How the results depend on the processing

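The alpha row exceeded the gamma row in every library in CPM and on unshared exon length, but on the length of one transcript their ratio fell below 1 in male C (0.976). The level of the pooled rows changed with the length used: the alpha row had 17.8 RPKM on the deposited length and 83.1 RPKM on the length of one transcript, and the gamma row had 63.2 RPKM on the latter. With a pseudocount of 1 in place of 0.1, the median beta level went from 1.15 to 1.64 on the log2 scale. Without a filter on low counts, 12 genes in place of 5 passed between sexes. With the letter as a replicate block, 5 genes and 0 clustered protocadherins passed. Libraries of the same letter deviated with correlations of 0.28 (A), -0.29 (B) and -0.08 (C), and not every library correlated best with its own letter. The deviations were taken from the mean of the 3 libraries of each sex, so these correlations depend on each other. They cannot decide whether letters pair libraries.

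Leaving out each library in turn gave alpha levels of 19.5 to 20.5 RPKM, gamma levels of 11.9 to 12.6 RPKM, beta totals of 217 to 231 CPM, a median beta level of 1.10 to 1.23 and a ratio of alpha to gamma reads of 1.41 to 1.55. The share of the 3 highest beta genes was 35.2% to 36.4%, the rho of order with level 0.44 to 0.47 and the median BCV 0.214 to 0.233. Between sexes, 5 genes, 0 clustered protocadherins and 0 genes of the other lists passed in every such fit, and none of the 6 named fold changes turned its sign. Those of genes that did not pass still moved: Pcdhb2 was at 0.26 without male A and 0.68 without male C, Smchd1 at 0.08 without female A and 0.48 without female B, Brk1 at -0.11 without male C and -0.40 without male A, and Diaph1 at -0.20 without female A and -0.50 without female C. The number of all genes at an unadjusted p under 0.05 was 94 without female B and 802 without female C, beside 166.

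The planned comparisons of C-type isoforms could not be run, because the rows pool isoforms. The tests of adjacent beta pairs passed for 15 pairs with RefSeq lengths and 14 with a pseudocount of 1 or RLE factors, and 5 libraries allow no p under 0.0625. The comparison of sexes rests on 3 libraries a side, and male C holds a single embryo.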

Other observations

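The deposited table also has rows for noncoding genes within the clusters, chosen here after their values were seen. Gm26672, whose exons share 1647 bases with the gamma row, had 98, 237 and 255 reads in the females and 172, 207 and 167 reads in the males, a mean of 9.05 ± 1.89 CPM (SD, n = 6). Gm10545, which shares 2790 bases with the alpha row on the opposite strand, had 12 to 30 reads a library and 0.904 ± 0.174 CPM. Gm10544 had 0.940 ± 0.236 CPM and 3222401L13Rik 1.08 ± 0.300 CPM. No source used here states whether reads were counted by strand, so reads of such rows and of the overlapping protocadherin exons cannot be told apart.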
